A study of Mus musculus with 21 samples.

Results

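The regions described here are stretches of mouse autosomes where H3K9me2 domains divided the libraries across their genotype labels. A 1 kb bin belonged to them when it was covered in the libraries labelled WT replicate 1, WT replicate 3 and Prdm16 replicate 2 and in none of WT replicate 2, Prdm16 replicate 1 and Prdm16 replicate 3. Touching bins were merged, which gave 259 regions with 88.653 Mb, or 8.24% of the 1075.878 Mb of autosomes covered in at least 1 library. Merging all bins covered in at least 1 library gave 1296 regions. The regions were thus selected on the domain coverage of these 6 libraries, and this pattern was chosen because it is the longest of the 20 ways to divide them into 3 and 3. Its coverage and its rank are therefore given as a description with no test.

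The series studied Prdm16, a PR-domain transcriptional regulator, in fibro-adipogenic progenitors (FAPs), mesenchymal cells of skeletal muscle that support repair and can turn into fat or fibrous tissue. Adult mice of both groups carried Prdm16Flox/Flox. The group labelled Prdm16 also carried Pdgfrα Cre-ERT/+, a tamoxifen-inducible recombinase expressed from Pdgfra, a gene active in FAPs and in other mesenchymal cells, and the group labelled WT had Pdgfrα+/+ and no recombinase. Both groups received tamoxifen for 5 days and, after 7 further days, cardiotoxin into the muscle to injure it. FAPs were sorted 5 days after injury and grown on coated dishes for 4 to 5 days, so the cells measured were cultured cells. H3K9me2 domains came from 3 libraries of each genotype, LaminB1 domains from 1 library of each, and RNA from 3 WT and 2 Prdm16 libraries. The labels do not say whether replicates were separate animals, nor which chromatin replicate and RNA replicate came from the same cells.

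H3K9me2, dimethylation of lysine 9 of histone H3, is laid down mainly by the paired methyltransferases G9a (Ehmt2) and GLP (Ehmt1). It covers broad blocks of gene-poor, mostly silent chromatin. Many such blocks lie at the nuclear lamina, the protein mesh under the nuclear envelope that contains LaminB1, and are then called lamina-associated domains. Genes for neural adhesion, receptors and channels often lie in them in cells outside the nervous system.

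Inside the regions lay few active genes, and the promoters of those with the most RNA are shown because they stand inside H3K9me2 domains of the covered libraries. Each window runs from 250 bases before to 50 bases after an annotated start (RefSeq, GRCm38.p6), and capitals mark CG dinucleotides, which read the same on both strands. Ccdc50 encodes a ubiquitin-binding protein and its window is chr16:27388706-27389005, plus strand. Manea encodes a mannosidase of the Golgi and its window is chr4:26346603-26346902, minus strand. Lsm8, a subunit of the nuclear Lsm ring used in splicing, has its window at chr6:18848385-18848684, plus strand, and that of Msantd4 is chr9:4376302-4376601, plus strand. Cdh10, a cadherin of neurons in the longest region, is set beside them as a gene with almost no RNA, a choice made after its values were seen, with its window at chr15:18820079-18820378, plus strand. The gene bodies of Ccdc50 and Cdh10 begin at 27387065 and 18818869, and that of Manea, on the minus strand, at 26346918. The windows of these genes thus lie inside the body, and CG at its outer start was not counted.
Ccdc50: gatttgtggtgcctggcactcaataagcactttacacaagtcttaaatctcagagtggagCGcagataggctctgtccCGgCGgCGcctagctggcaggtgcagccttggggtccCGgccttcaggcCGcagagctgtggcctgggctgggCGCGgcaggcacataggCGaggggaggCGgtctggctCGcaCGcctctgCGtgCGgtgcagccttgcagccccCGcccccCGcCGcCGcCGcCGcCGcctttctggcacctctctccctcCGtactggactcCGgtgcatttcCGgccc
Manea: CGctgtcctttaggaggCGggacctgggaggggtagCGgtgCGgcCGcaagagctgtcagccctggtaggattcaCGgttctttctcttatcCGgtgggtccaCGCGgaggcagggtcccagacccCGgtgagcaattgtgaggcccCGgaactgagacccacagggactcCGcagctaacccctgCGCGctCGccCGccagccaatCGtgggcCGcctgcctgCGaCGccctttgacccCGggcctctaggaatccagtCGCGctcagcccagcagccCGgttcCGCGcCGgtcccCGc
Lsm8: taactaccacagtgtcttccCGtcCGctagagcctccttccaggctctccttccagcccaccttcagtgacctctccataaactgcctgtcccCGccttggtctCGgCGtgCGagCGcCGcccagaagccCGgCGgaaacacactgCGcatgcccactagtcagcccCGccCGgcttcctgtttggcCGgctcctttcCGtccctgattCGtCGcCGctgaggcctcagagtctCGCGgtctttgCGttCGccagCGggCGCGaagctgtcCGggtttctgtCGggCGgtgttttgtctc
Msantd4: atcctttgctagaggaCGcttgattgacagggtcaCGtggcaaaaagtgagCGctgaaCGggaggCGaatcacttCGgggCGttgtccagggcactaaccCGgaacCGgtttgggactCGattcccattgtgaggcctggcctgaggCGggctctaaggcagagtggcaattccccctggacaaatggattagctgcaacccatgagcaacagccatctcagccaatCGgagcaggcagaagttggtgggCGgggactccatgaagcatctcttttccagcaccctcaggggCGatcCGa
Cdh10: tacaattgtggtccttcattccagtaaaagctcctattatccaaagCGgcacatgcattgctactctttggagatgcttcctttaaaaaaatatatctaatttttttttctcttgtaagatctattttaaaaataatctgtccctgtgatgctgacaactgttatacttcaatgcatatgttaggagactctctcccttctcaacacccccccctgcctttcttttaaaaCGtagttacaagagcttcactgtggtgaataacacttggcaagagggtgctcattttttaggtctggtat

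The 4 windows of expressed genes held 24, 28, 28 and 15 CG dinucleotides, in the order printed, and the Cdh10 window held 2. Over all protein-coding starts inside the regions (96 windows of 84 genes) the median was 7.5 CG and 44.8% held at least 10. The same medians over all 20085 autosomal protein-coding windows were 14 CG, with 57.9% at 10 or more. The letters TATAAA, searched on both strands, occurred in 24 of the 96 region windows and in 2553 of the 20085 (12.7%). Windows in the other H3K9me2 classes were not counted, so whether these values are particular to the regions cannot be told. Of these 84 genes, 23 were not among the 87 protein-coding region genes of the count table, which have a share of at least 0.5 of their body in the regions. The other 61 are those of the 87 protein-coding region genes of the count table that matched a window inside the regions, and 8 more matched only windows outside them. Of the 61, those that passed the RNA expression filter had a median of 24 CG at their richest start (14 genes, 13 of them with at least 10). Those that did not pass had a median of 3 (47 genes, 11 with at least 10). The deposited domain lists give no signal at a start, so whether a promoter itself carried H3K9me2 was not measured.

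A second set of sequences comes from the third longest region, whose right end holds the miR-17 cluster on chromosome 14, plus strand. Its hairpins give the mature miRNAs below (RefSeq, GRCm38.p6), with the seed, bases 2 to 8, in capitals. They are printed because their host transcript Mir17hg was measured and was expressed.
miR-17-5p: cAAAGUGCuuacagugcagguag
miR-20a-5p: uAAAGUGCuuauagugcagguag
miR-18a-5p: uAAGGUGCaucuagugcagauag
miR-19a-3p: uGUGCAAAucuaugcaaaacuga
miR-19b-3p: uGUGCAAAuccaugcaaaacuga
miR-92a-3p: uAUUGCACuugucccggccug

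The miR-17-5p and miR-20a-5p strands share the seed AAAGUGC, miR-19a-3p and miR-19b-3p share GUGCAAA, and miR-18a-5p and miR-92a-3p each have their own. These miRNAs are known for promoting cell proliferation. The regions held 67 of 1093 autosomal genes with a Mir symbol (6.13%), Mir17hg among them, against 3.02% in bins covered by all 6 libraries. Of these, 55 belonged to the Mir297, Mir466, Mir467 and Mir669 families and sat together at chr2:10476346-10518279, so they are a single locus and not independent members. That locus filled a region of 45 kb within Sfmbt2, a Polycomb-group gene, with WT LaminB1 over 100% of it and Prdm16 LaminB1 over 0%. Polyadenylated RNA does not measure mature miRNAs, and no level is given for them.

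The covered libraries were those with the most H3K9me2, which bears on every statement about the split. Autosomal domains covered 882.897 Mb in WT replicate 1, 800.385 Mb in Prdm16 replicate 2 and 775.719 Mb in WT replicate 3. They covered 676.851 Mb in Prdm16 replicate 3, 562.011 Mb in WT replicate 2 and 500.154 Mb in Prdm16 replicate 1. The groups by label therefore overlapped: the mean was 740 ± 163 Mb in WT and 659 ± 151 Mb in Prdm16 (SD, n = 3 each). The difference of -81.1 Mb was smaller than either SD.

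The 6 libraries can be divided into 3 covered and 3 uncovered in 20 ways, and together these splits held 161.568 Mb. The split described here, chosen as the longest, held 54.9% of that length. The next split, covered in WT replicates 1 and 2 and Prdm16 replicate 1, held 11.694 Mb, and the smallest held 0.171 Mb. Bins covered in all WT and no Prdm16 library came to 3.846 Mb in 70 regions, and bins covered in all Prdm16 and no WT library to 6.312 Mb in 76 regions. The mirror image of the split, covered in WT replicate 2 and Prdm16 replicates 1 and 3 alone, held 1.833 Mb.

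**Figure D1:**
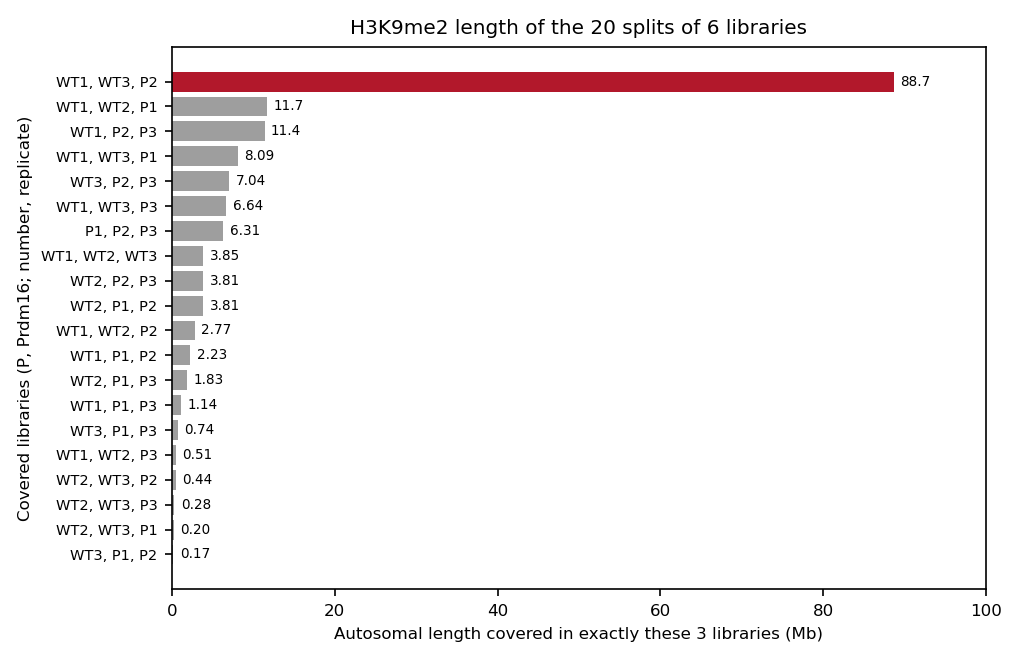
Bars give the autosomal length (Mb, linear axis) covered in exactly the 3 libraries named at the left, for all 20 splits of the 6 H3K9me2 libraries (P stands for Prdm16, the number for the replicate). The split described here (red) holds 88.7 Mb, and the other bars lie between 0.17 and 11.7 Mb.

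Bins just outside the rule, 1 library away from it, added up to 185.64 Mb in 6 patterns. Largest among them was the pattern that Prdm16 replicate 3 covered as well, with 93.042 Mb in 306 regions. Bins of WT replicates 1 and 3 without Prdm16 replicate 2 held 52.194 Mb, and those that WT replicate 2 covered as well held 17.61 Mb. With libraries added in the order of their covered length, the patterns of 1 to 6 libraries held 47.748, 11.061, 88.653, 93.042, 87.771 and 290.886 Mb. Each was the longest pattern with that number of libraries except that of 2 libraries, WT replicate 1 and Prdm16 replicate 2, which ranked 3.

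The rule was also applied with each library reduced to the 500.154 Mb of the shortest by dropping its domains of lowest score, which uses the same domain lists and is again a description. The same split was the longest of the 20, with 69.9 Mb in 76 regions, of which 61.152 Mb lay in the original regions. At that length WT replicate 1 covered 80.4%, WT replicate 3 82.3% and Prdm16 replicate 2 76.4% of the original regions. The mirror split then came next, with 41.658 Mb. The reduction kept 196 to 225 domains in the covered libraries and 382 to 1031 in the others, so it favoured long domains in the covered libraries, and the part of covered length in the split was not tested. The X chromosome was not used by the rule. There the same pattern held 1.209 Mb and was the fourth longest of 20, behind the pattern of WT replicates 1 and 3 with Prdm16 replicate 1 (11.727 Mb). Total X coverage was 40.728 and 12.771 Mb in Prdm16 replicates 2 and 3 and 72.969 to 133.86 Mb in the other libraries. The labels give no sex of the mice, and its part in X coverage was not tested.

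The regions ranged from 3 to 3846 kb, with a median of 114 kb (quartiles 18 and 379.5 kb). The 26 regions of at least 1 Mb held 51.9% of the length, and the 83 regions under 30 kb held 0.834 Mb. The rule itself places every region inside a domain of each covered library. These domains had a median length of 1146 kb in WT replicate 1, 1194 kb in WT replicate 3 and 750 kb in Prdm16 replicate 2. Of the 259 regions, both ends lay inside the domain for 187, 185 and 134 in these libraries, in that order. Under the rule a region ends where a domain of a covered library stops or one of an uncovered library starts. Contact with domains of uncovered libraries thus follows in part from the rule, and is given as a description. Prdm16 replicate 3 had a domain touching 137 regions, WT replicate 2 touching 96 and Prdm16 replicate 1 touching 41. Altogether 227 regions (86.0% of the length) touched a domain of an uncovered library, and the other 32 regions touched none. The nearest domain lay a median of 0 kb away in Prdm16 replicate 3, 54 kb in WT replicate 2 and 489 kb in Prdm16 replicate 1.

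By chromosome, the split was longest on chromosome 15, with 10.719 Mb or 22.5% of the length covered there in any library. Chromosomes 1, 16, 14 and 3 followed with 9.375, 8.763, 8.625 and 7.854 Mb. Chromosome 7 held 0.987 Mb (2.07%) and chromosome 17 the least, 0.972 Mb.

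The longest region was chr15:16998001-20844000, 3846 kb, with Cdh10 and part of Cdh12 inside it. In WT replicate 1, WT replicate 3 and Prdm16 replicate 2 it lay in a single domain of 12297, 12297 and 12330 kb, which also held the sixth longest region. A WT replicate 2 domain met its left end and a Prdm16 replicate 3 domain its right end, while the nearest Prdm16 replicate 1 domains lay 3339 and 3792 kb away. The second, chr14:82464001-85548000, 3084 kb, held Pcdh17 and had Prdm16 replicate 3 domains at both ends. The third, chr14:112467001-115095000, 2628 kb, began where the Prdm16 replicate 2 domain began and ended 2.8 kb inside Gpc5, a glypican. The fourth, chr3:42948001-45390000, 2442 kb, took in 20.7% of Pcdh10. The fifth, chr1:67635001-69795000, 2160 kb, held all of Erbb4, a neuregulin receptor, and Ikzf2, the transcription factor Helios. No protein-coding gene lay in chr15:14469001-16530000 (2061 kb), chr16:53232001-55065000 (1833 kb) or chr4:37461001-39240000 (1779 kb). The remaining 2 of the 10 longest were chr2:40845001-42690000 (1845 kb), with 87.9% of Lrp1b, and chr3:71310001-73143000 (1833 kb), with Sis and Slitrk3.

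**Figure D2:**
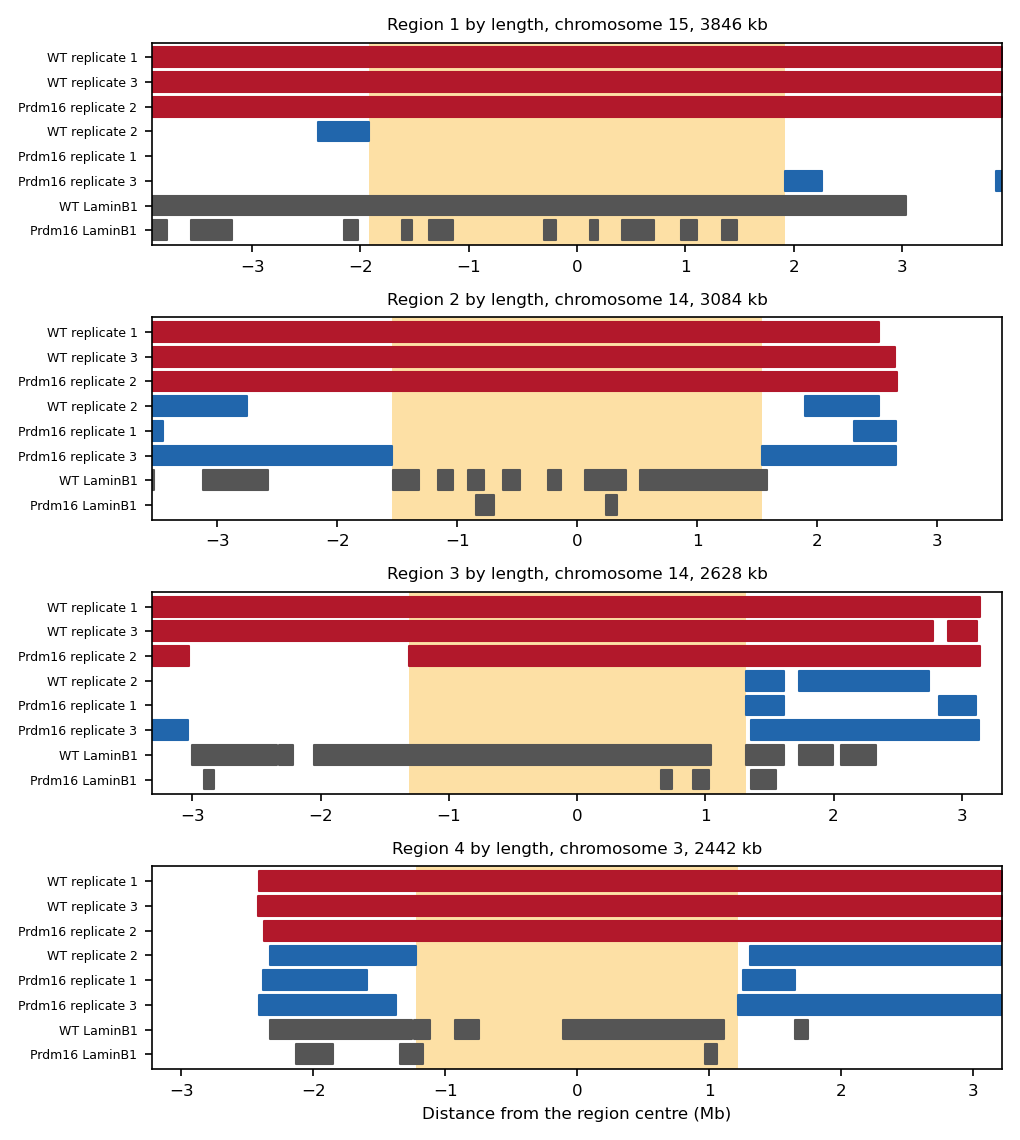
Domains of the 8 libraries around the 4 longest regions, against the distance from the region centre (Mb). Shading marks the region, red bars the covered libraries, blue bars the uncovered libraries and grey bars LaminB1. The red bars run past at least one end of the shading in each panel. By the rule, the blue bars stop at or before the shading.

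LaminB1 was not used to choose the regions, but each genotype had 1 library, so the values below have no replicate check and no test. The WT LaminB1 domains covered 60.6% of the split length and the Prdm16 domains 12.6%. Both covered 12.2%, WT alone 48.4%, Prdm16 alone 0.389% and neither 39.0%. The Prdm16 share was the lower on 19 of 19 autosomes. The whole Prdm16 LaminB1 library was smaller, with 305.236 Mb of autosomes against 646.54 Mb in WT, and over all autosomes the shares were 12.7% and 26.9%. Prdm16 thus had 0.207 of the WT share in the split regions and 0.472 over all autosomes. That ratio was lower still, 0.155, where Prdm16 replicate 3 was covered as well. It was 0.413 where WT replicates 1 and 3 alone were covered and 0.382 in bins of all 6 libraries.

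LaminB1 shares of the neighbouring H3K9me2 classes lay on both sides of those of the split regions. Where Prdm16 replicate 3 was covered as well, WT LaminB1 covered 24.4% and Prdm16 LaminB1 3.78%. Where WT replicates 1 and 3 alone were covered, the shares were 87.6% and 36.2%, and in bins of all 6 libraries 54.2% and 20.7%. Bins with no H3K9me2 had 12.9% and 8.95%. With WT LaminB1 reduced to the Prdm16 covered length by score, its share of the split regions was 27.7%, still above the 12.6% of Prdm16. The same reduction, extended to the other classes after seeing the data, left 14.4% in bins of all 6 libraries, below the 20.7% of Prdm16, so the direction there depended on the covered length. In the other classes WT stayed above Prdm16. It had 6.55% against 3.78% where Prdm16 replicate 3 was covered as well, and 50.2% against 36.2% for WT replicates 1 and 3 alone. With no H3K9me2 the shares were 9.31% and 8.95%. Covered length moved with genotype in LaminB1, and its part in the difference was not tested.

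**Figure D3:**
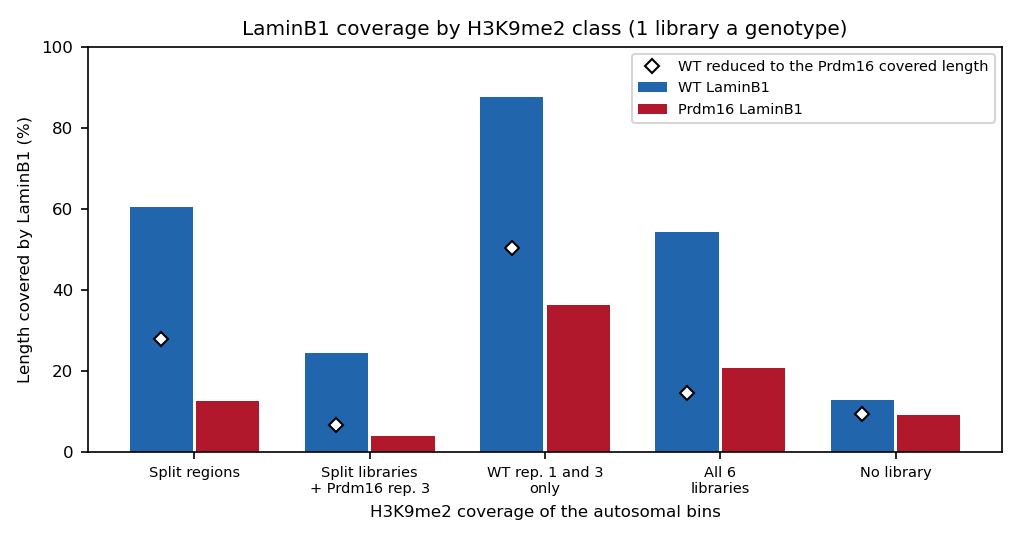
Bars give the share of length (%) covered by the WT (blue) and Prdm16 (red) LaminB1 library in 5 classes of autosomal bins by H3K9me2 coverage, and diamonds the WT share after reduction to the Prdm16 covered length. In the split regions the values are 60.6%, 12.6% and 27.7%, and in bins of all 6 libraries the diamond (14.4%) lies below the red bar (20.7%).

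By count, though not by length, single regions were mostly covered fully or not at all. WT LaminB1 covered the whole of 80 regions, which held 22.401 Mb, and at least 50% of 121, which held 57.378 Mb. Prdm16 LaminB1 covered at least 50% of 20. Neither library touched 109 regions, which were short (median 33 kb, 11.64 Mb in all). WT was higher in 138 regions, Prdm16 in 3, and both were equal above 0 in 9. All 26 regions of at least 1 Mb had more WT than Prdm16 LaminB1, with medians of 67.2% and 8.07%. Over all autosomes WT LaminB1 alone covered 14.5% and Prdm16 alone 0.255%, so a higher WT share was not particular to the regions. These counts use the full domain lists of 1 library pair, were not repeated at equal covered length, and regions are not replicates. Among the 10 longest, WT ran from 32.8% to 100% and Prdm16 from 0% to 39.3%. The longest region had 100% and 28.3%, the Pcdh17 region 67.6% and 7.91%, the Lrp1b region 100% and 13.8%, and the Erbb4 region 33.6% and 8.89%.

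**Figure D4:**
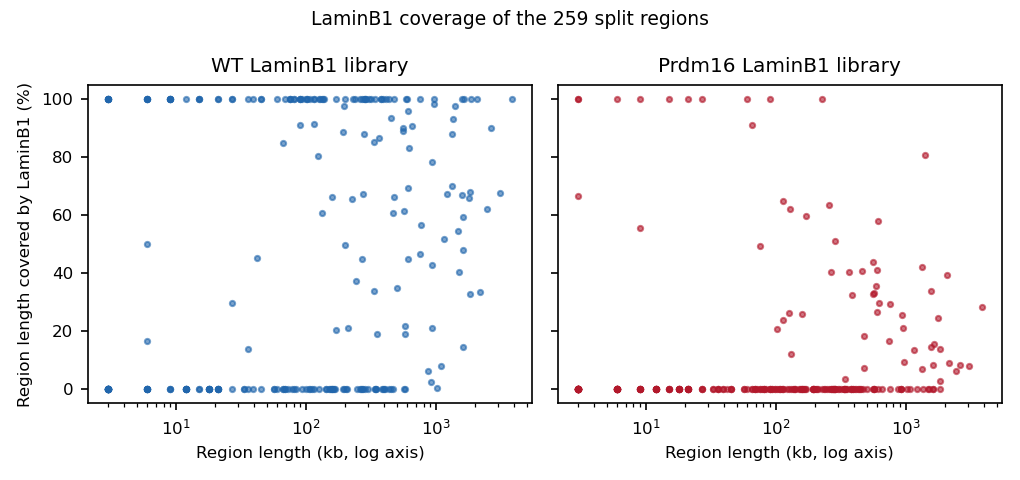
Each point is 1 of the 259 regions, with its length (kb, log axis) against the share of it covered by LaminB1 (%), in the WT library (left) and the Prdm16 library (right). Many regions sit at 0% or 100% in WT, and in Prdm16 most sit at 0%.

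Genes were sparse in the regions. A gene was counted as inside when a share of at least 0.5 of its body lay in them, which gave 537 annotated genes, 218 of them pseudogenes, 106 lncRNA and 89 protein-coding. The density was 1.00 protein-coding gene per Mb, against 2.17 in bins of all 6 libraries, 13.1 in bins with no H3K9me2 and 8.55 over all autosomes. It was 1.05 where Prdm16 replicate 3 was covered as well, 2.62 where WT replicates 1 and 3 alone were covered and 0.792 in bins of all Prdm16 and no WT library. The protein-coding members were long, with a median of 30.6 kb against 17.6 kb over all autosomes, and 24 of 89 (27.0%) reached 100 kb against 11.2%. Bins that Prdm16 replicate 3 covered as well had the same median of 30.6 kb, with 28.6% at 100 kb or more, and bins of all 6 libraries had a median of 23.0 kb and 32.1%. A further 78 protein-coding genes lay partly inside, and 141 regions touched no protein-coding gene.

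Adhesion genes of the cadherin family had several members inside. Of 33 autosomal genes that a search by Cdh and Pcdh symbol listed, 5 lay inside (15.2%), against 0.431% of all 20665 autosomal protein-coding genes. In bins of all 6 libraries lay 3 of the 33 (9.09%). The list may not hold every such gene. No other Cdh or Pcdh gene lay inside, so a fuller list would give a lower share. The members inside were Cdh2, Cdh10, Cdh12, Cdh18 and Pcdh17, and Cdh19, Pcdh10 and Pcdh15 lay partly inside. Cdh10, Cdh12 and Cdh18 are neighbours on chromosome 15 and share their surroundings. Of 21 axon guidance genes 2 lay inside, the netrin receptor Dcc and the ephrin receptor Epha6. One of 28 neural adhesion genes (Lrp1b, a lipoprotein receptor relative), 1 of 27 ion channel genes (Kcnj3, an inward rectifier) and 1 of 362 solute carriers (Slc6a15, an amino acid transporter) were inside. Bins of all 6 libraries held more of these 4 lists: 4 axon guidance, 12 neural adhesion, 8 ion channel and 8 solute carrier genes. Olfactory receptors, often found in silent clusters, had 5 of 1104 inside against 49 in bins of all 6 libraries. No member of the lists of FAP identity, adipogenic, sarcomere, extracellular matrix, H3K9 methylation or lamina genes was inside, and 0 of 39 Hox genes. The first 6 lists held 14, 16, 22, 27, 21 and 12 autosomal genes, in that order, and the matrix gene Col19a1 lay partly inside. With 0.431% of all autosomal protein-coding genes inside, lists this short would mostly have no member there, so nothing is read from their absence.

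LaminB1 differed between the genes of these lists. Cdh10, Cdh12, Dcc and Lrp1b had WT LaminB1 over 100% of their bodies, and Prdm16 LaminB1 over 0%, 0%, 8.38% and 14.2%. Over Epha6 the shares were 94.8% and 24.3%. Cdh2 and Cdh18 had 0% in both libraries, and Pcdh17 had 10.2% and 0%.

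RNA was measured in the same kind of cells but not in the same libraries, so no RNA library can be set beside a covered or uncovered H3K9me2 library. Library totals ran from 5839587 to 10657791 counts. All 9 FAP markers reached at least 1 CPM (counts per 1e6, scaled by trimmed mean of M-values) in every RNA library, with summed levels of 3313 to 6861 CPM in WT and 6212 to 6302 CPM in Prdm16. Of other cell types, 5 of 7 myoblast markers did so, with sums of 85.3 to 319 CPM in WT and 231 to 256 CPM in Prdm16. Pericyte and smooth muscle markers did so in 2 of 3 cases, with sums of 99.0 to 364 CPM in WT and 134 to 170 CPM in Prdm16, and Myh11 stayed under 1 CPM. Tenocyte markers did so in 1 of 3 cases, with sums of 12.3 to 13.0 CPM in WT and 15.3 to 27.7 CPM in Prdm16. Endothelial markers did so in 1 of 3 cases (2.69 to 4.48 and 4.97 to 6.89 CPM, Pecam1 under 1 CPM). Macrophage markers did so in 1 of 4 cases (3.27 to 4.73 and 3.37 to 4.20 CPM), with Ptprc, Adgre1 and Itgam under 1 CPM, and no Schwann cell marker did. For tenocyte and endothelial markers the lowest Prdm16 sum exceeded the highest WT sum, and their part in the values below was not tested. The targeted gene, Prdm16, measured 16.4, 13.5 and 5.51 CPM under the WT label, against 10.6 and 15.3 CPM under the Prdm16 label. The groups overlapped. Counts cover the whole gene, the labels do not name the floxed part, and so this neither bears out nor contradicts the labels. The p-values of the authors' deposited table matched DESeq2 within 1% for 15240 of 15240 genes when WT replicate 3 and Prdm16 replicate 2 formed the pair, and for 179 genes as labelled. Directions below therefore follow the labels only. The H3K9me2 enzymes lay outside the regions: Ehmt1 had 125, 99.5 and 120 CPM in WT and 101 and 92.7 CPM in Prdm16, and Ehmt2 had 67.0, 54.2 and 37.0 CPM in WT and 58.7 and 66.8 CPM in Prdm16. For Ehmt2 the groups overlapped, and for Ehmt1 1 Prdm16 value lay within the WT range.

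**Figure D5:**
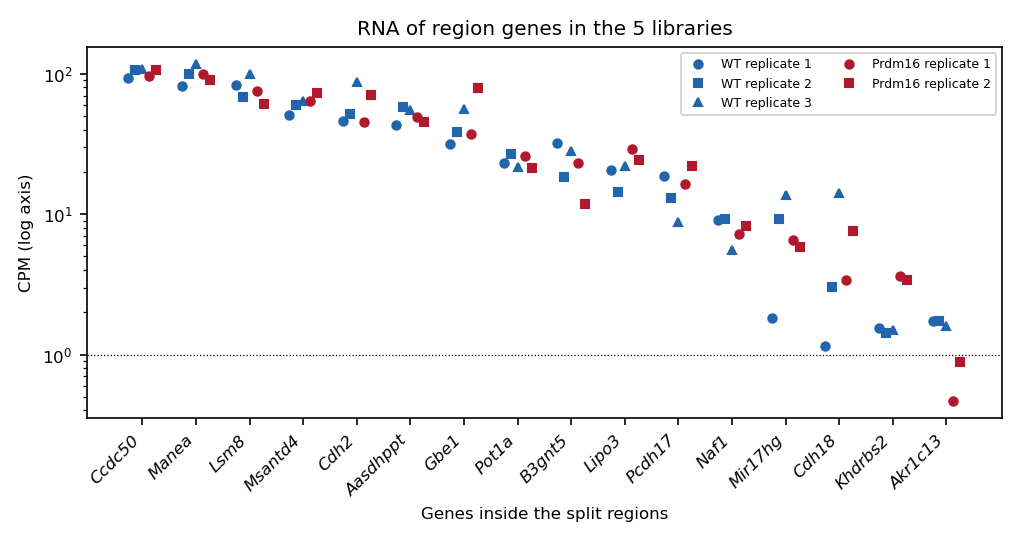
CPM (log axis) of 16 region genes in the 5 RNA libraries, blue for those labelled WT and red for Prdm16, with a dotted line at 1 CPM. Ccdc50, Manea and Lsm8 lie between 60.6 and 118 CPM in all libraries, and Khdrbs2 has both red points above all blue ones.

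Most region genes had little or no RNA. Of 87 protein-coding region genes in the count table, 23 reached 1 CPM in each WT library and 25 in each Prdm16 library, or 26.4% to 28.7%. Over all located autosomal protein-coding genes the share was 58.3% to 59.5%, and in bins of all 6 libraries 8.94% to 11.1%. Where Prdm16 replicate 3 was covered as well it was 30.2% to 35.4%, and where WT replicates 1 and 3 alone were covered 8.21% to 11.9%. There were 18 with no count in any library. In bulk RNA, fewer cells with a transcript and less of it per cell cannot be told apart. Of the 87, 24 passed the expression filter (27.6%, against 10.4% in bins of all 6 libraries and 66.8% in bins with no H3K9me2). LaminB1 touched neither genotype in 19 of these 24 and in 21 of the 63 that did not pass. WT LaminB1 covered at least 50% of the body in 3 of the 24 and in 37 of the 63.

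Among the expressed members, 3 genes of ubiquitin binding, glycan trimming and splicing had the highest mean levels. Ccdc50 had 93.8, 106 and 108 CPM in WT and 96.5 and 107 CPM in Prdm16. Manea had 81.9, 99.5 and 118 CPM in WT and 100.2 and 90.9 CPM in Prdm16. Lsm8 had 83.0, 68.2 and 99.1 CPM in WT and 75.2 and 60.6 CPM in Prdm16. In these 3 genes the groups overlapped. Cdh2, N-cadherin, had 46.2, 51.5 and 87.2 CPM in WT and 45.3 and 70.5 CPM in Prdm16. Pcdh17 had 18.6, 13.0 and 8.86 CPM in WT and 16.3 and 22.0 CPM in Prdm16. The groups overlapped in both cadherins, and the spread within WT was as wide as the distance between groups. Aasdhppt, which attaches phosphopantetheine to carrier proteins, had 43.0, 58.2 and 55.3 CPM in WT and 49.3 and 45.6 CPM in Prdm16. Pot1a, a telomere-binding protein, had 23.0, 26.9 and 21.6 CPM in WT and 26.0 and 21.3 CPM in Prdm16. B3gnt5, a glycosyltransferase of glycolipids with 69.7% of its body inside, had 32.3, 18.3 and 28.2 CPM in WT and 23.1 and 11.7 CPM in Prdm16. Naf1, an assembly factor of small nucleolar ribonucleoproteins, had 9.04, 9.17 and 5.60 CPM in WT and 7.24 and 8.17 CPM in Prdm16. In all 4 genes at least 1 Prdm16 value lay within the WT range. Mir17hg, the host of the miR-17 cluster, had 1.83, 9.17 and 13.7 CPM in WT and 6.54 and 5.86 CPM in Prdm16. Its 2 Prdm16 values lay inside the WT range.

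Several genes best known from neurons had almost no RNA. Cdh10 had at most 0.746 CPM (8 counts) and Lrp1b at most 0.71 CPM (4 counts) in any library. Cdh12 and Erbb4 had 2 counts and 1 count, both in WT replicate 3, and Slitrk3 and Kcnj3 had no count in any library. Ikzf2, beside Erbb4 in the same region, had 7.50, 8.89 and 4.67 CPM in WT and 6.65 and 6.39 CPM in Prdm16. A region could therefore hold silent and expressed genes side by side. Dcc and Epha6 had at most 2 counts in any library, and the zinc finger gene Zfp804a at most 6. Slc6a15 was the exception among the receptor, channel and transporter genes named here, with 4.42, 1.29 and 8.96 CPM in WT and 5.84 and 6.57 CPM in Prdm16. The 2 Prdm16 values of Slc6a15 fell inside its WT range. The listed olfactory receptors Olfr44, Olfr952 and Olfr954 had at most 1 count in a library.

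The comparison by label tested whether region genes differed between Prdm16 and WT RNA. Fitted on all 15240 genes with edgeR's quasi-likelihood test and Benjamini-Hochberg adjustment, 0 genes (0%) had an adjusted p under the threshold of 0.05. Among the 37 region genes tested none was called, and 1 had an unadjusted p under 0.05, against 378 of all genes (2.48%). DESeq2 and limma-voom also called no region gene, with 1 each at an unadjusted p under 0.05. The median log2 fold change of Prdm16 over WT was 0.06 in region genes and 0.00 over all genes, with 19 region genes positive and 18 negative. Both Prdm16 libraries lay above all WT libraries in 7 of the 37 (8.83% of all genes) and below them in 2 (8.96%). Together that is 24.3% of the region genes against 17.8% of all.

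Khdrbs2, an RNA-binding splicing regulator with 77.2% of its body in the regions, had 1.54, 1.43 and 1.49 CPM in WT and 3.62 and 3.37 CPM in Prdm16. Both Prdm16 values exceeded all WT values, and edgeR gave a log2 fold change of 1.22 ± 0.47 (SE) with unadjusted p = 0.03 and adjusted p = 0.9996. This rests on 10 to 31 counts a library. Lipo3, a lipase family member, had 20.7, 14.5 and 22.2 CPM in WT and 28.9 and 24.3 CPM in Prdm16, with a log2 fold change of 0.48 ± 0.27. Msantd4 had 51.2, 60.3 and 63.8 CPM in WT and 63.97 and 73.5 CPM in Prdm16, with a log2 fold change of 0.23 ± 0.21. For Msantd4 the highest WT and the lowest Prdm16 value nearly touched. Akr1c13, an aldo-keto reductase, had 1.73, 1.72 and 1.59 CPM in WT and 0.467 and 0.888 CPM in Prdm16, a log2 fold change of -1.34 ± 0.65 on 4 to 18 counts. Akr1c13 and Lipo3 belong to families of close copies, among which the counting may have split reads. Each of these had an adjusted p of 0.9996 in edgeR, so none passed the test.

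The authors' deposited table gave an adjusted p for 15 region genes, and 2 were called up and none down, against 1.97% up and 5.58% down of 6237 genes. They were Cdh18, with the authors' log2 fold change of 1.81, and Gbe1, with 0.72. In the counts by label Cdh18 had 1.15, 3.01 and 14.1 CPM in WT and 3.39 and 7.64 CPM in Prdm16. Its highest and lowest values were both WT, and edgeR gave -0.17 ± 1.02. That sign was not stable: the log2 fold change was 1.42 without WT replicate 3 and 0.28 without Prdm16 replicate 1. Gbe1 had 31.8, 38.4 and 56.2 CPM in WT and 37.1 and 78.9 CPM in Prdm16, and edgeR gave 0.46 ± 0.37. Without Prdm16 replicate 2 it was -0.17. Both genes had their highest values under the labels WT replicate 3 and Prdm16 replicate 2, which is the pairing that matched the authors' p-values.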

How the data were processed

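The members, gene lists and tests were chosen with earlier results of these data known. The 8 input samples were not used. The deposited lists gave each domain's position and the authors' score; no source used here gives the caller or the making of the score. Depth behind the domains is unknown, and they carry no interval. Domain ends fell on multiples of 3 kb for H3K9me2 and 4 kb for LaminB1, so 1 kb bins held them exactly. Counts were deposited by the authors as raw counts per gene, beside a normalized signal that the authors made from them and that was not used here. The authors' table held their log2 fold changes and p-values. Tools listed in the submitters' processing notes, without roles, are DESeq2 1.20, featureCounts, STAR 2.7 and Bowtie 1.2.2, and builds are GRCm38, mm10 and dm6. Per the labels' protocols, RNA libraries followed SMART-seq2.

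Of 15240 genes kept by edgeR's default filterByExpr, 13783 (90.4%) were located in RefSeq GRCm38.p6. The fit of the counts used edgeR 4.0.16 under R 4.3.3 (TMM scaling, robust quasi-likelihood, two-sided, Benjamini-Hochberg, no replicate block). DESeq2 1.42.0 and limma 3.58.1 (voom) were alternatives. Without statement of strand, overlapping and antisense genes cannot be told apart. Domains were handled in Python 3.11.15 with numpy 2.4.6, pandas 2.3.3 and scipy 1.17.1, and drawn with matplotlib 3.10.9. On simulated data with 100 genes changed by each size, edgeR recovered 28 at 2-fold and 95 at 4-fold for this comparison of 15240 genes. The simulation gave every gene the same dispersion of 0.05 and took the labels as correct. In the real counts the spread differed between genes, so these numbers do not give the recovery there. The exact two-sided permutation test planned for total H3K9me2 length by genotype gave p = 0.6 (smallest possible p 0.1). It uses the coverage that chose the regions and cannot pass 0.05, so nothing is read from it.

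Named regions were the 10 longest. Named genes were those overlapped most by these regions (up to 2 each), the 12 region genes with the highest mean CPM, up to 6 each way by smallest p with groups that do not overlap, up to 3 per list by mean CPM, and those called in the authors' table. Symbols of Gm, Rik and pseudogenes were left out. The named sequences were limited to the first 4 expressed genes with a start in a region, with Cdh10 and the miR-17 cluster added after seeing the data. Replicates were left out in turn, and the score threshold, merging, covered length, gene share, filter and scaling were varied. Some genes of the lists are not reported here.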

Additional observations from a re-analysis of the deposited data

How the results depend on the processing

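The split stayed the longest of the 20 with the lowest 25% of scores left out and at equal covered length, where it held 76 regions. Leaving out 1 H3K9me2 library gave 94.077 to 181.695 Mb in 290 to 417 regions, with 140.847 Mb in 411 regions without Prdm16 replicate 2 and 181.695 Mb in 417 regions without Prdm16 replicate 3, as fewer libraries then set the rule. The WT LaminB1 share fell from 60.6% to 27.7% at equal LaminB1 length. The share of protein-coding region genes at 1 CPM, 27.4% on average, was 93.3% among genes past the expression filter, by construction of that filter. The H3K9me2 length difference between genotypes kept its sign, from -170 to -1.59 Mb with 1 library left out.

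Correlations of same-numbered deviations from the group mean were 0.02, -0.26 and 0.09 in the domains and 0.21 and -0.20 in RNA. Those of differently numbered libraries ran from -0.27 to 0.22 and from -0.36 to 0.36. With 2 Prdm16 RNA libraries, the deviations of one are the negative of those of the other. In groups this small the correlations cannot decide whether replicate numbers pair the libraries. With the replicate block the length difference was -81.1 Mb, as without it, and 0 region genes were called. No region gene was called under any of the 14 RNA alternatives, and 0 to 3 had an unadjusted p under 0.05. Over all genes, 0 calls became 2 with DESeq2, 25 with no filter, 1 with the block, 4 without Prdm16 replicate 1 and 93 without WT replicate 3 and Prdm16 replicate 1 together. Genes at an unadjusted p under 0.05 ran from 69 (without Prdm16 replicate 2) to 1103 (no filter), against 378. With 1 library left out Gbe1 ran from -0.17 (without Prdm16 replicate 2, reversed) to 0.87 and Cdh18 from -0.85 to 1.42. Cdh18 reversed to 1.43 with the block, 1.42 without WT replicate 3, 0.28 without Prdm16 replicate 1, 1.88 without both, and 0.35 with limma-voom. The cause was not tested.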
